A study of Mus musculus with 20 samples.

Results

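The Rab small GTPases were followed at the RNA level in RAW264.7 cells, a mouse macrophage-like line that becomes osteoclast-like when it is given RANKL. Members were all genes of the RPKM table whose symbol is Rab, a number, and at most 1 letter and 1 further digit, pseudogenes left out. This gave 58 genes of the 50686 in the count table. Poly(A) RNA sequencing was done in 20 libraries, 2 in each of 10 groups. One group was untreated and collected at hour 0. The other 9 groups came from cells given RANKL at 50 ng/ml, I-BET at 500 nM, or both together, and were collected after 4, 14 or 24 h. I-BET blocks the bromodomains of BET proteins. All groups were the same cell line, and the labels' source name gives bone marrow. Untreated cells were collected at hour 0 alone, so that time in culture and treatment cannot be told apart in a comparison with them. Whether paired libraries were grown as separate cultures is not stated, so that the p-values below reflect variation among these samples alone, which may be technical.

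Rab proteins are membrane-anchored switches. They carry a prenyl group, are loaded with GTP by exchange factors, recruit effectors that tether, move or fuse vesicles, and are switched off by GTPase-activating proteins. Each Rab marks a compartment, such as the Golgi, the early endosome, the recycling endosome, the late endosome or a secretory granule. An osteoclast resorbs bone across the ruffled border, a membrane built by the fusion of late endosomes and secretory lysosomes with the cell surface, and Rab7 and Rab3d are known for their part in that traffic. RANKL is the cytokine that starts the osteoclast programme, and BET proteins read acetylated histones at active genes.

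Libraries held 19051780 to 62313792 counts, and the Rab genes took 0.301% to 0.363% of them. In untreated library 2 the 5 genes with the most counts held 11.4% of the library, against 3.54% to 6.09% in the other 19. The 8 macrophage markers summed to 4864 and 5067 RPKM in untreated cells and to 1280 and 1551 RPKM at 24 h of RANKL. Most of the change in this sum was Lyz2, at 3799 and 3996 RPKM and then 624.8 and 850 RPKM. Adgre1 read 33.5 and 38.7 RPKM and then 4.44 and 6.41 RPKM, while Cd68 changed little, from 399.8 and 343.4 RPKM to 339.7 and 314.8 RPKM. The 10 osteoclast markers summed to 75.2 and 141 RPKM in untreated cells, to 327 and 431 RPKM at 24 h of RANKL, and to 21.3 and 29.8 RPKM at 24 h of RANKL plus I-BET. Among them Acp5, Ctsk and Atp6v0d2 were high at 24 h of RANKL, while Calcr and Itgb3 did not exceed 0.0741 RPKM in any library and Mertk, a macrophage marker, did not exceed 0.127 RPKM. The 24 markers of other cell types summed to at most 1.06 RPKM in a library, and 8 of them had no counts in any library. The part that these markers and the composition of untreated library 2 play in the Rab values was not tested. In such bulk RNA, fewer cells of a type and less RNA per cell cannot be told apart.

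Rab RNA was spread unevenly over the members. RPKM scales the reads of a gene by its length and by the size of the library, so that it can be compared between genes. Averaged over the 20 libraries, 24 of the 58 members were at 10 RPKM or more, 13 between 1 and 10 RPKM, 4 between 0.1 and 1 RPKM and 17 under 0.1 RPKM. Rab7, which carries late endosomes to the lysosome, had the highest mean level at 100.7 RPKM. Rab1b, of traffic between the endoplasmic reticulum and the Golgi, followed at 91.6 RPKM and the early endosome gene Rab5c at 90.3 RPKM. The ranges of these 3 overlapped, with Rab7 at 90.1 to 110 RPKM, Rab1b at 73.0 to 111 RPKM and Rab5c at 69.7 to 108 RPKM. Summed over all members, Rab RNA came to between 938 and 1137 RPKM in every library.

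**Figure D1:**
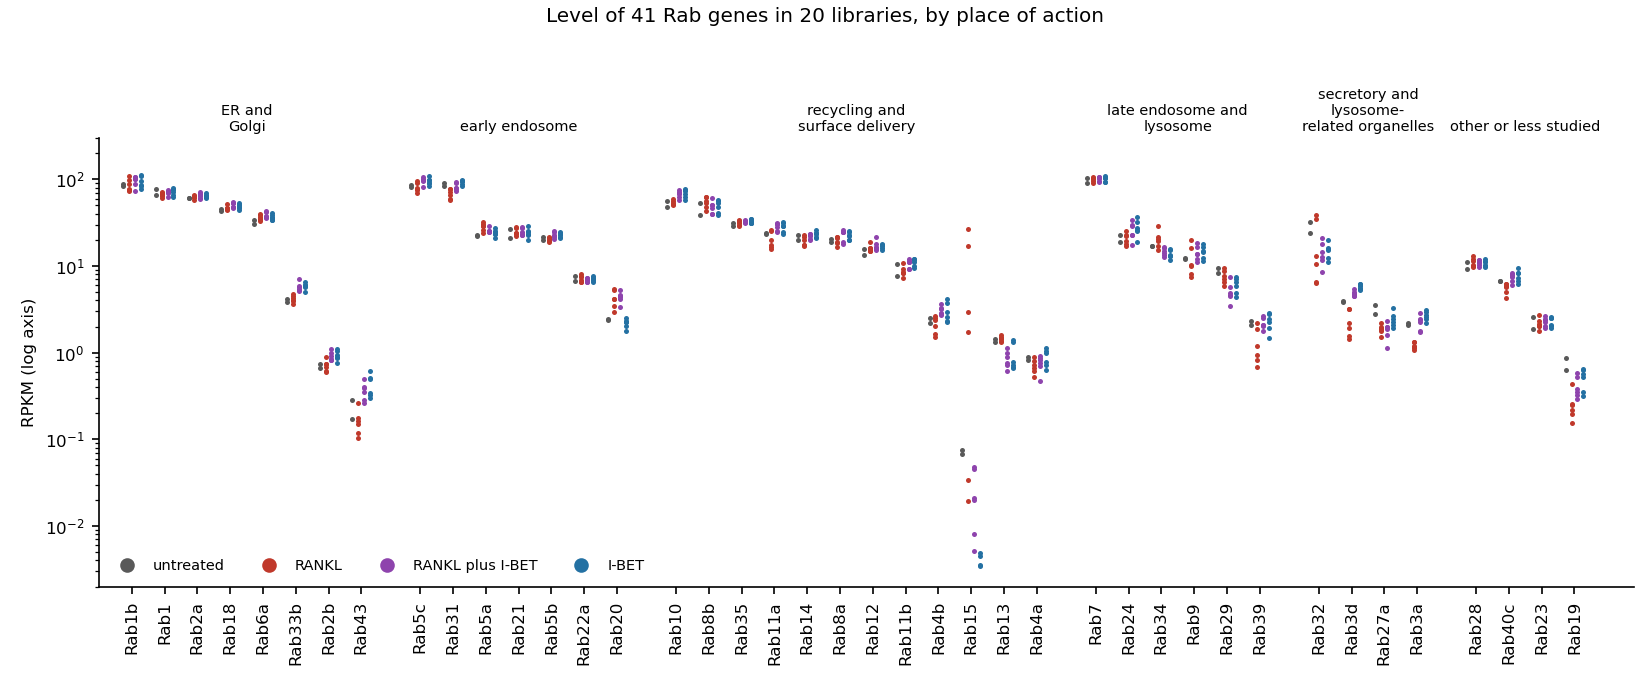
RPKM on a log axis for the 41 Rab genes with a mean of at least 0.1 RPKM, ordered by place of action; each point is 1 library, coloured by treatment, and libraries at 0 are not drawn. Points of Rab7 lie between 90.1 and 110 RPKM, those of Rab32 spread from 6.40 to 38.3 RPKM, and those of Rab15 reach 26.99 RPKM under RANKL.

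By place of action, the 7 early endosome genes were all at 1 RPKM or more. So were 11 of the 14 genes of recycling and surface delivery, 6 of 8 late endosome and lysosome genes, 6 of 11 Golgi and endoplasmic reticulum genes and 3 of 7 genes of other or less studied roles. Only 4 of the 11 genes of secretory and lysosome-related organelles reached that level. These were Rab32, Rab3d, Rab27a and Rab3a. Rab38, the close relative of Rab32 in melanosome biogenesis, had 3 counts over all 20 libraries, and Rab44, a large Rab of haematopoietic cells, had 4. No counts were seen for Rab9b, Rab17, Rab27b and Rab36. Of the 58 members, 44 passed the filter on low counts and were tested.

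A set of Rab genes differed between RANKL and untreated cells, where treatment and time in culture cannot be told apart. Rab15 rose from near 0 to a level typical of abundant members, Rab20 and Rab5a rose by less, and Rab32, Rab3d, Rab3a, Rab27a, Rab39, Rab11a, Rab31 and Rab19 fell. A gene was called when the adjusted p of edgeR's quasi-likelihood test, taken over all 16042 genes tested, was under 0.05. At 4 h of RANKL against untreated cells, 1 of the 44 tested members was higher, beside 2.08% of all genes tested, and 4 were lower, beside 1.83%. At 14 h, 2 were higher (8.31% of all genes) and 8 lower (10.1% of all genes). At 24 h, 4 were higher (8.04% of all genes) and 9 lower (10.9% of all genes). Falls at 14 and 24 h were 18.2% and 20.5% of the tested members, and the 24 h count depended on single libraries. It was 5, with 4 rises, without untreated library 2, and 4, with 5 rises, without RANKL library 1. The median log2 change of the members at 24 h was -0.08, and that of all genes was 0.05. These 3 comparisons share the untreated libraries. With the replicate number as a block, 9 members were called at 4 h, where the same fit called 14.5% of all genes, 14 at 14 h (36.3% of all genes) and 17 at 24 h (36.8% of all genes). Leaving out any 1 of the 4 libraries left between 0 and 2 calls at 4 h, and leaving out untreated library 1 left 7 at 24 h, with 1 rise and 6 falls. Without RANKL library 2 the 24 h calls were 1 rise and 8 falls.

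Of the 6 roles, that of secretory and lysosome-related organelles held the largest share of members called lower under RANKL at 14 and 24 h. At 14 h and at 24 h, 4 of the 5 tested genes of that role fell, beside 10.1% and 10.9% of all genes. The median log2 change over the 5 was -0.94 and -0.87. The falls of Rab3a at both hours and of Rab27a at 24 h were lost when single libraries were left out, as given below. How far this ranking rests on the placing of genes in roles was not tested. Summed over its 11 genes, the role held 41.5 and 32.6 RPKM in untreated cells and 45.0 and 40.8 RPKM at 4 h of RANKL. It then held 17.5 and 15.5 RPKM at 14 h and 10.98 and 11.9 RPKM at 24 h, with no overlap between the early and the late libraries. Most of the early sums was Rab32, at 31.9 and 23.8 RPKM in untreated cells and 6.40 and 6.47 RPKM at 24 h of RANKL. With I-BET alone the role held 29.9 and 26.8 RPKM at 4 h and 26.0 and 23.8 RPKM at 24 h, also below untreated cells. None of the 9 tested Golgi and endoplasmic reticulum genes was called against untreated cells at any hour of RANKL in edgeR's test. Among these 9, Rab30 alone had an unadjusted p under 0.05, at 4 and 14 h, and DESeq2 called 0. With the block, Rab30 was called higher at 4 h (2.25, adjusted p = 0.0129), and Rab43 lower at 14 h (-0.73, adjusted p = 0.0151) and at 24 h (-0.82, adjusted p = 0.009). Of all 44 tested members, an unadjusted p under 0.05 was reached by 8 at 4 h, 12 at 14 h and 14 at 24 h, and DESeq2 called 6, 10 and 13. The share of all genes was not counted for these 2 measures, so that these numbers cannot be set against a background.

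With I-BET added to RANKL, Rab3d, Rab3a, Rab39 and Rab11a were higher than with RANKL alone at 14 and 24 h, Rab13 and Rab5a were lower, and Rab15 was near 0. At 4 h of RANKL plus I-BET against RANKL, 4 members were higher (4.93% of all genes) and 1 was lower (6.46% of all genes). At 14 h, 7 were higher (10.8% of all genes) and 3 lower (11.2% of all genes). At 24 h, 10 were higher (13.9% of all genes) and 5 lower (12.9% of all genes). The median log2 difference of the 44 members at 24 h was 0.12, and that of all genes was -0.05. With the replicate block, 11 members were called at 4 h (28.1% of all genes), 23 at 14 h (40.2% of all genes) and 23 at 24 h (46.6% of all genes). Leaving out any 1 library left 1 to 3 calls at 4 h. At 24 h, 9 calls were left without RANKL library 2 or either RANKL plus I-BET library. These differences and those between RANKL and untreated cells share the RANKL libraries.

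With I-BET alone, Rab13 and Rab32 were lower and Rab10 was higher than in untreated cells at 14 and 24 h. Against untreated cells, 1 member was higher at 4 h (4.03% of all genes) and 4 were lower (6.48% of all genes). At 14 h, 1 was higher (5.29% of all genes) and 3 were lower (8.37% of all genes). At 24 h, 3 were higher (7.5% of all genes) and 4 were lower (10.2% of all genes). The block called 11 members at 4 h (29% of all genes), 11 at 14 h (29.8% of all genes) and 16 at 24 h (36.2% of all genes). Leaving out any 1 library left 0 to 2 calls at 4 h. At 14 h, 2 calls were left without untreated library 2 or I-BET library 1. At 24 h, 3 were left without untreated library 2 or I-BET library 1, and 4 without I-BET library 2.

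In the presence of the inhibitor, Rab20 was the 1 Rab gene called for RANKL. It was higher in RANKL plus I-BET than in I-BET at 4 h (0.48% of all genes), with 0 lower (0.0374% of all genes). It was again higher at 14 h (0.549% of all genes), with 0 lower (0.355% of all genes). At 24 h edgeR called 0 members higher (0.106% of all genes) and 0 lower (0.156% of all genes). An unadjusted p under 0.05 was reached by 2 higher members and 1 lower at 4 h, by 2 higher and 1 lower at 14 h, and by 1 higher and 1 lower at 24 h. The share of all genes at this unadjusted p was not counted. DESeq2 called 0 lower members at each hour and 0 higher at 24 h. With the block, 2 members were called at 4 h (3.07% of all genes) and 2 at 24 h (2.95% of all genes). Leaving out any 1 library at 4 h, or library 1 of either group at 14 h, left 0 calls.

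Between 4 and 24 h of RANKL, 3 members rose (9.77% of all genes) and 5 fell (12.6% of all genes), and the block called 16 (42.7% of all genes). The log2 difference between RANKL plus I-BET and RANKL was higher at 24 h than at 4 h for 3 members, Rab32, Rab11a and Rab10 (4.58% of all genes), and lower for 1, Rab15 (2.71% of all genes). The block called 16 in that test (21.9% of all genes). Leaving out RANKL plus I-BET 4 h library 1 left 2 calls, and leaving out RANKL 24 h library 2 gave 7.

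**Figure D2:**
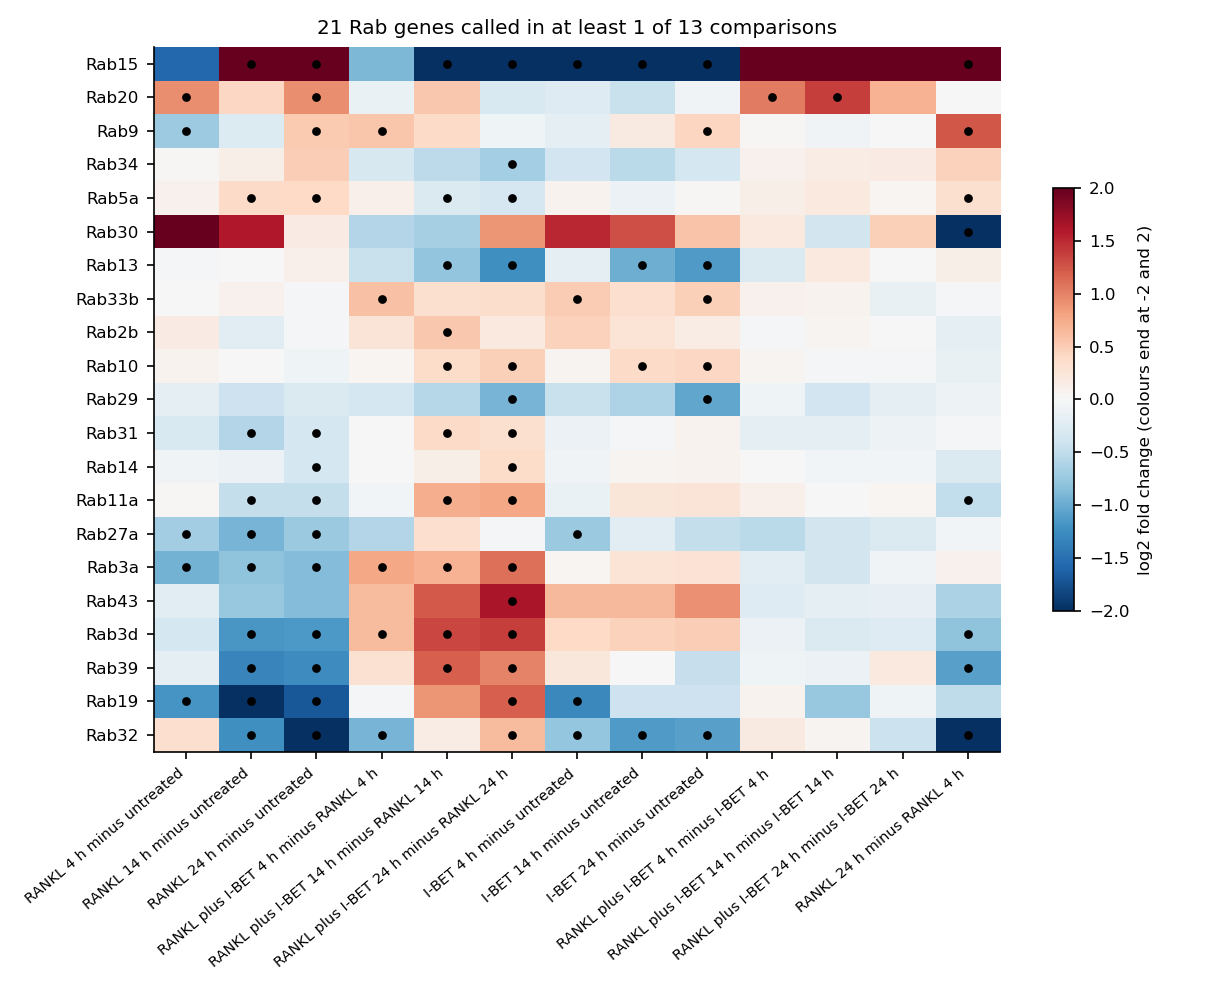
Log2 fold change (colour, ending at -2 and 2) of the 21 Rab genes called in at least 1 of 13 comparisons, in the order of their change at 24 h of RANKL; a dot marks a call at an adjusted p under 0.05. Rab15 is at the top (8.17 at 24 h of RANKL) and Rab32 at the bottom (-2.15). Rab3d, which stands near the bottom, is at -1.15 in that comparison and at 1.39 where I-BET was added at 24 h. The uncalled colours of Rab15 in comparisons with I-BET alone rest on 0 or 1 count per I-BET library.

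Rab15, a Rab of early and recycling endosomes that slows receptor recycling, changed most. The gene lies at chr12:76797960-76822908 on the minus strand (GRCm38), and no other annotated gene shares its exons. The 2 untreated libraries held 6 and 14 counts, and the RANKL libraries held 5 and 7 at 4 h. At 14 h of RANKL there were 397 and 693 counts, and at 24 h 3185 and 5096. With both agents there were 5 and 1 counts at 4 h, 6 and 4 at 14 h, and 10 and 2 at 24 h. I-BET libraries held 0 and 0 counts at 4 h and 1 count each at 14 and at 24 h. The late RANKL libraries thus stood apart from the other 16, none of which exceeded 14 counts.

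In RPKM, Rab15 stood at 17.2 and 26.99 after 24 h of RANKL, which is within the range of Rab11a, and at 0.0683 and 0.0755 in untreated cells. It was higher than in untreated cells by 4.97 on the log2 scale at 14 h (SE 0.47, adjusted p = 1.29e-05) and by 8.17 at 24 h (SE 0.48, adjusted p = 1.79e-07). From 4 to 24 h of RANKL it rose by 9.74 (SE 0.52, adjusted p = 7.38e-08). With I-BET added, it was lower than with RANKL, with a log2 difference of -6.25 at 14 h (SE 0.52, adjusted p = 3.8e-06) and -9.76 at 24 h (SE 0.52, adjusted p = 8.54e-08). The inhibitor's difference changed from 4 to 24 h by -8.87 (SE 1.61, adjusted p = 0.00462), a call lost without RANKL plus I-BET 4 h library 1 (adjusted p = 0.341). In CPM (counts scaled to library size alone) summed over each group, the ratio of RANKL to RANKL plus I-BET was 870 at 24 h, with a 95% exact interval of 498 to 1685, which covers counting error only. The ratio of 24 h to 14 h of RANKL was 9.45, with an interval of 8.87 to 10.1.

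The levels of Rab15 without late RANKL rested on few counts. Against the 20 counts of untreated cells, I-BET at 4 h had none. A floor of 3 counts over the group gave a ratio of 9.63, which leaves out the counting error of the 20 counts. The ratio of untreated cells to I-BET was 17.8 at 14 h (interval 4.32 to 157, 2 counts) and 18.6 at 24 h (interval 4.52 to 164, 2 counts). These 3 falls under I-BET were called, with adjusted p of 0.0145, 0.0204 and 0.015, and each was lost without untreated library 2 or either I-BET library, the 14 h one also without untreated library 1, with adjusted p of up to 0.114, 0.167 and 0.132. At 4 h, RANKL libraries did not differ from untreated ones by the test (log2 difference -1.57, SE 0.75, adjusted p = 0.362). RANKL plus I-BET held 6, 10 and 12 counts at the 3 hours against 0, 2 and 2 with I-BET, and none of these differences was called (adjusted p of 0.996, 0.513 and 0.917).

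**Figure D3:**
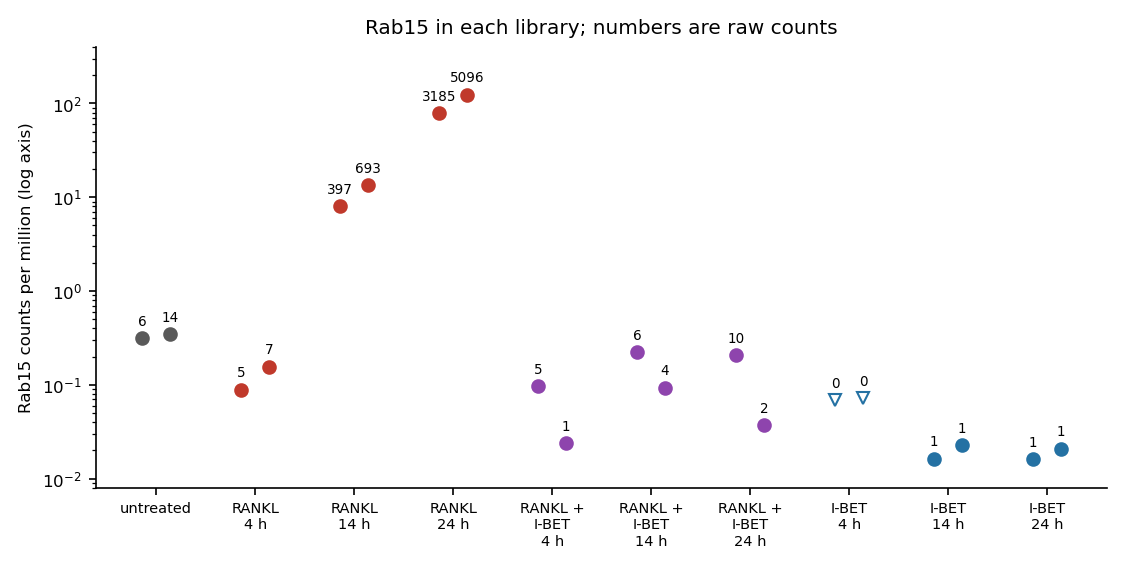
Rab15 CPM (counts scaled to library size) on a log axis, 1 point per library, with the raw count printed above each; open triangles stand for libraries with 0 counts and are drawn at a floor of 3 counts. Only the RANKL libraries of 14 h (397 and 693 counts) and 24 h (3185 and 5096 counts) rise above the others.

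Rab32 directs cargo to lysosome-related organelles and to phagosomes, and it was the secretory member with the most RNA. It lies at chr10:10545011-10558233 on the minus strand. Untreated libraries read 31.9 and 23.8 RPKM, and RANKL libraries read 38.3 and 34.5 RPKM at 4 h. They read 13.1 and 10.7 RPKM at 14 h and 6.40 and 6.47 RPKM at 24 h. RANKL plus I-BET gave 20.9 and 17.8 RPKM at 4 h, 14.5 and 12.7 at 14 h, and 11.9 and 8.62 at 24 h. At 4 h the inhibited cells were thus below the RANKL cells, and at 24 h they were above, with no overlap at either hour. I-BET alone gave 19.7 and 16.2 RPKM at 4 h, 15.9 and 11.1 at 14 h, and 15.3 and 12.4 at 24 h.

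Under RANKL Rab32 fell by 1.22 on the log2 scale at 14 h (SE 0.18, adjusted p = 0.00033) and by 2.15 at 24 h (SE 0.19, adjusted p = 2.51e-06). The log2 difference at 4 h was 0.33 (SE 0.18, adjusted p = 0.447), and with the replicate block it was called (adjusted p = 0.0195). Relative to RANKL, RANKL plus I-BET was lower at 4 h (-0.93, SE 0.18, adjusted p = 0.00423) and higher at 24 h (0.64, SE 0.18, adjusted p = 0.0182). The 24 h call was lost without either RANKL library or without RANKL plus I-BET library 1 (adjusted p up to 0.193). From 4 to 24 h of RANKL it fell by 2.48 (SE 0.19, adjusted p = 7.75e-07). The change in the inhibitor's difference from 4 to 24 h was itself called at 1.57 (SE 0.25, adjusted p = 0.00176). With I-BET alone Rab32 was lower than in untreated cells, with log2 differences of -0.77 at 4 h (SE 0.18, adjusted p = 0.0141), -1.13 at 14 h (SE 0.18, adjusted p = 0.000794) and -1.08 at 24 h (SE 0.18, adjusted p = 0.0008). The first of these was lost without untreated library 1 or I-BET library 2 (adjusted p up to 0.151). Between RANKL plus I-BET and I-BET, Rab32 was called at 24 h in the block alone, where it was lower (-0.44, adjusted p = 0.0148).

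Rab3d and Rab3a are Rabs of regulated secretion, and Rab3d is known in osteoclasts for vesicles near the ruffled border. Rab3d read 3.82 and 3.95 RPKM in untreated cells, 3.201 and 3.22 at 4 h of RANKL, 1.55 and 1.92 at 14 h, and 1.44 and 2.18 at 24 h. With I-BET added it read 4.72 and 5.41, 4.51 and 4.56, and 4.74 and 4.98 RPKM at the 3 hours, and with I-BET alone it lay between 5.34 and 6.16 RPKM. Every library with I-BET was therefore above every library without it. Against untreated cells Rab3d fell by 1.17 at 14 h (SE 0.19, adjusted p = 0.000776) and by 1.15 at 24 h (SE 0.19, adjusted p = 0.000742). I-BET raised it over RANKL by 0.64 at 4 h (SE 0.19, adjusted p = 0.0402), 1.34 at 14 h (SE 0.19, adjusted p = 0.000204) and 1.39 at 24 h (SE 0.19, adjusted p = 0.000103). The 4 h call was lost without any 1 of the 4 libraries (adjusted p up to 0.263). From 4 to 24 h of RANKL it fell by 0.80 (SE 0.19, adjusted p = 0.00786), a call lost without 24 h library 1 (adjusted p = 0.0903). With I-BET alone the differences from untreated cells were not called (0.41, 0.46 and 0.49), while the block called all 3, with adjusted p of 0.00861, 0.00303 and 0.00142.

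Rab3a, at 2.17 and 2.10 RPKM in untreated cells, lay between 1.09 and 1.33 RPKM in all 6 RANKL libraries and between 1.73 and 2.84 RPKM in the RANKL plus I-BET libraries. These 2 sets of treated libraries did not overlap, and with I-BET alone Rab3a lay between 2.17 and 3.08 RPKM. It fell under RANKL by 0.95 at 4 h, 0.80 at 14 h and 0.87 at 24 h (SE 0.23 each, adjusted p of 0.0313, 0.0241 and 0.0155). The first 2 were lost without any 1 library and the last without untreated library 2 or RANKL library 1 (adjusted p up to 0.261, 0.155 and 0.123). I-BET added to RANKL raised it by 0.78, 0.70 and 1.10 at the 3 hours (SE 0.22 each, adjusted p of 0.0362, 0.0371 and 0.00208). The first 2 of these calls were lost without either RANKL library or RANKL plus I-BET library 2 (adjusted p up to 0.288 and 0.391).

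Rab27a, which docks secretory lysosomes at the plasma membrane, fell with RANKL, and I-BET did not raise it in edgeR's test. Untreated libraries read 3.56 and 2.76 RPKM, and the RANKL libraries lay between 1.499 and 2.22 RPKM. The log2 differences were -0.69 at 4 h (SE 0.18, adjusted p = 0.048), -0.94 at 14 h (SE 0.18, adjusted p = 0.00235) and -0.75 at 24 h (SE 0.18, adjusted p = 0.00951). With I-BET added it read 1.61 and 1.13 RPKM at 4 h, 2.33 and 1.95 at 14 h, and 1.99 and 1.88 at 24 h. I-BET alone at 4 h gave 2.26 and 1.90 RPKM, lower than untreated by a log2 difference of -0.74 (SE 0.18, adjusted p = 0.018). The 4 h RANKL call was lost without any 1 library, the 24 h one without untreated library 1 or RANKL library 1, and the I-BET one without either untreated library or I-BET library 2 (adjusted p up to 0.278, 0.0742 and 0.168). With the block, I-BET added to RANKL lowered it at 4 h (-0.59, adjusted p = 0.000686) and raised it at 14 h (0.34, adjusted p = 0.0285).

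**Figure D4:**
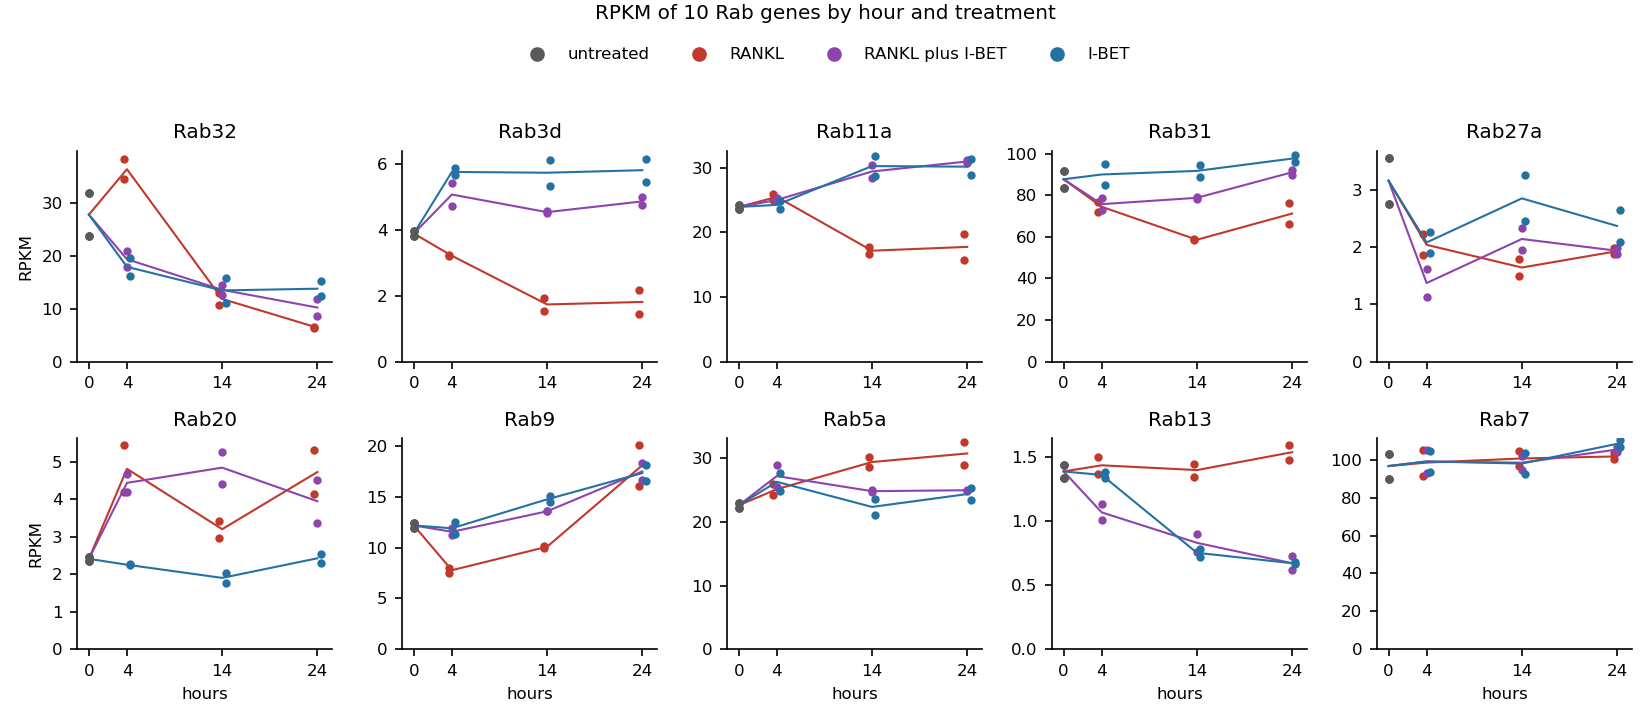
RPKM of 10 Rab genes against hours of treatment; points are libraries, lines join group means, and the untreated libraries stand at hour 0 for all 3 treatments. Rab3d and Rab11a separate RANKL from the inhibited cells at 14 and 24 h, Rab20 is high wherever RANKL was given, and Rab7 stays between 90.1 and 110 RPKM.

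Of the 7 early endosome genes, Rab5a, Rab31 and Rab20 were called in at least 1 comparison. Rab5a, which drives the fusion of early endosomes, read 23.0 and 22.2 RPKM in untreated cells, 30.2 and 28.6 RPKM at 14 h of RANKL and 29.0 and 32.6 RPKM at 24 h. It rose by 0.38 at 14 h (SE 0.10, adjusted p = 0.0142) and by 0.40 at 24 h (SE 0.10, adjusted p = 0.00993). RANKL plus I-BET libraries read 24.7 and 25.02 RPKM at 14 h and 25.1 and 24.9 RPKM at 24 h, below RANKL by log2 differences of -0.29 (SE 0.10, adjusted p = 0.0439) and -0.33 (SE 0.10, adjusted p = 0.0188). Between 4 and 24 h of RANKL it rose by 0.31 (SE 0.10, adjusted p = 0.0301). All 5 calls were lost without 1 library. For the rise at 14 h and the inhibitor's difference at 14 h any of the 4 did so, for the rise at 24 h untreated library 1 or RANKL library 2, for the inhibitor's difference at 24 h RANKL library 2 or either RANKL plus I-BET library, and for the change from 4 to 24 h either 4 h library or 24 h library 2. The highest adjusted p in these 5 were 0.133, 0.244, 0.122, 0.205 and 0.273.

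Rab31, of traffic between the Golgi and endosomes, read 91.7 and 83.6 RPKM in untreated cells, 58.3 and 58.9 RPKM at 14 h of RANKL and 66.0 and 76.4 RPKM at 24 h. RANKL plus I-BET libraries read 78.4 and 79.1 RPKM at 14 h and 92.1 and 89.9 RPKM at 24 h, above the RANKL libraries. I-BET alone gave 94.5 and 88.7 RPKM at 14 h and 99.3 and 95.9 RPKM at 24 h. The falls under RANKL were -0.58 at 14 h (SE 0.09, adjusted p = 0.000529) and -0.34 at 24 h (SE 0.09, adjusted p = 0.0161). The inhibitor's differences were 0.38 (SE 0.09, adjusted p = 0.00786) and 0.32 (SE 0.09, adjusted p = 0.0171). The 24 h fall was lost without either untreated library or RANKL library 1 (adjusted p up to 0.169). The inhibitor's difference was lost at 14 h without RANKL library 1 or RANKL plus I-BET library 2, and at 24 h without RANKL library 1 or either RANKL plus I-BET library (adjusted p up to 0.0858 and 0.162).

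Rab20, an endosomal and phagosomal Rab of macrophages, was the member whose rise under RANKL was also called in the presence of I-BET. Untreated libraries read 2.45 and 2.36 RPKM. RANKL libraries read 4.17 and 5.44 RPKM at 4 h, 2.97 and 3.42 at 14 h, and 4.14 and 5.30 at 24 h. With I-BET added they read 4.20 and 4.67, 5.26 and 4.41, and 4.52 and 3.36 RPKM, while I-BET libraries lay between 1.76 and 2.54 RPKM. All 12 libraries with RANKL were therefore above all 8 without it. The log2 rise over untreated cells was 0.93 at 4 h (SE 0.21, adjusted p = 0.021) and 0.92 at 24 h (SE 0.21, adjusted p = 0.0061). At 14 h it was 0.41 (SE 0.21, adjusted p = 0.218). Over I-BET alone, RANKL plus I-BET was higher by 1.04 at 4 h (SE 0.20, adjusted p = 0.0406) and by 1.39 at 14 h (SE 0.21, adjusted p = 0.00665). At 24 h that difference was 0.70 (SE 0.20, adjusted p = 0.338), and the block called it (adjusted p = 0.034). The 4 calls were lost, in this order, without either untreated library or RANKL library 2, without untreated library 1 or RANKL library 2, without any 1 library, and without RANKL plus I-BET library 1 or I-BET library 1. Adjusted p rose to 0.223, 0.0692, 0.393 and 0.115. Of the exonic bases of Rab20, 25.6% are shared with a gene on the opposite strand.

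Rab11a, the Rab of recycling endosomes, was lower under RANKL and higher where I-BET was added. Untreated libraries read 24.3 and 23.5 RPKM, and RANKL libraries read 25.02 and 25.9 at 4 h, 17.7 and 16.6 at 14 h, and 15.7 and 19.8 at 24 h. Those with I-BET added read 25.2 and 24.8 at 4 h, 30.5 and 28.3 at 14 h, and 31.1 and 30.8 at 24 h. I-BET alone gave 31.8 and 28.7 RPKM at 14 h and 28.9 and 31.4 RPKM at 24 h. The late RANKL libraries were the lowest 4 of the 20, and the late libraries with I-BET, with or without RANKL, were above the untreated ones. Rab11a fell by 0.48 at 14 h (SE 0.11, adjusted p = 0.0073) and by 0.48 at 24 h (SE 0.11, adjusted p = 0.00751). I-BET raised it over RANKL by 0.73 at 14 h (SE 0.11, adjusted p = 0.000304) and 0.77 at 24 h (SE 0.11, adjusted p = 0.000144). The inhibitor's difference at 24 h exceeded that at 4 h by 0.81 (SE 0.16, adjusted p = 0.00514). From 4 to 24 h of RANKL it fell by 0.50 (SE 0.11, adjusted p = 0.00475). Both falls from untreated cells were lost without untreated library 2, without RANKL library 2 at 14 h and without RANKL library 1 at 24 h (adjusted p up to 0.0974 and 0.0938). The fall from 4 h was lost without 4 h library 2 or 24 h library 1 (adjusted p up to 0.07).

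Rab10 and Rab13, which deliver cargo to the cell surface, followed the inhibitor in opposite directions. Rab10 read 56.6 and 48.6 RPKM in untreated cells and between 50.2 and 59.2 RPKM in the RANKL libraries. At 14 and 24 h it read 71.5 and 68.5 and then 76.1 and 70.0 RPKM with RANKL plus I-BET, and 78.2 and 67.9 and then 75.3 and 72.7 RPKM with I-BET. All 8 late libraries with I-BET were above all libraries without it. I-BET raised Rab10 over RANKL by 0.36 at 14 h (SE 0.08, adjusted p = 0.00461) and 0.48 at 24 h (SE 0.08, adjusted p = 0.000469). With I-BET alone Rab10 was higher than in untreated cells by 0.39 at 14 h (SE 0.08, adjusted p = 0.00504) and 0.42 at 24 h (SE 0.08, adjusted p = 0.00223). The 0.39 was lost without untreated library 2 or I-BET library 1 (adjusted p up to 0.0725). The inhibitor's difference with RANKL grew from 4 to 24 h by 0.44 (SE 0.11, adjusted p = 0.0287), a call kept only without RANKL 24 h library 2 among the 8 libraries left out in turn (adjusted p up to 0.12).

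Rab13 read 1.44 and 1.33 RPKM in untreated cells and between 1.34 and 1.59 RPKM in the RANKL libraries. With I-BET added to RANKL it read 1.13 and 1.003 RPKM at 4 h, 0.756 and 0.900 at 14 h, and 0.614 and 0.724 at 24 h. I-BET libraries read 0.781 and 0.719 at 14 h and 0.677 and 0.661 at 24 h, also below every library without the inhibitor. Relative to RANKL, the log2 differences were -0.79 at 14 h (SE 0.16, adjusted p = 0.00308) and -1.23 at 24 h (SE 0.16, adjusted p = 7.54e-05). Relative to untreated cells, those of I-BET alone were -0.97 at 14 h (SE 0.17, adjusted p = 0.00123) and -1.13 at 24 h (SE 0.17, adjusted p = 0.000291). The -0.79 was lost without RANKL plus I-BET library 1 (adjusted p = 0.0507). At 4 h with RANKL, the block called a fall of -0.44 (adjusted p = 0.0451).

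Rab14, of traffic between the Golgi and recycling endosomes, read 22.7 and 20.03 RPKM in untreated cells, 17.1 and 17.4 RPKM at 24 h of RANKL, and 23.6 and 22.1 RPKM at 24 h of RANKL plus I-BET. The log2 differences were -0.35 for RANKL (SE 0.11, adjusted p = 0.03) and 0.37 for the inhibitor (SE 0.10, adjusted p = 0.0169). The first was lost without any 1 library, and the second without RANKL library 1 or either RANKL plus I-BET library (adjusted p up to 0.163 and 0.102).

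Among late endosome and lysosome genes, Rab7 did not move. Its 2 untreated libraries read 103 and 90.1 RPKM and its RANKL libraries 100.3 and 103 RPKM at 24 h. Over the 13 comparisons its log2 differences lay between -0.11 and 0.09, with adjusted p of 0.484 or more. Rab9, which returns receptors from late endosomes to the Golgi, first fell and then rose. It read 11.9 and 12.5 RPKM in untreated cells, 7.55 and 8.02 RPKM at 4 h of RANKL, 10.02 and 10.2 RPKM at 14 h and 16.1 and 20.2 RPKM at 24 h. The 4 h libraries were below the untreated ones and the 24 h libraries above them. The differences from untreated cells were -0.72 at 4 h (SE 0.13, adjusted p = 0.00677) and 0.52 at 24 h (SE 0.13, adjusted p = 0.0127), and the rise from 4 to 24 h was 1.24 (SE 0.13, adjusted p = 1.4e-05).

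With I-BET added, Rab9 read 11.9 and 11.2 RPKM at 4 h, higher than RANKL by 0.55 (SE 0.13, adjusted p = 0.0148), and 16.6 and 18.4 RPKM at 24 h, a difference from RANKL of -0.08 (adjusted p = 0.686). I-BET alone read 16.6 and 18.2 RPKM at 24 h, above untreated cells by 0.42 (SE 0.13, adjusted p = 0.0391). The 24 h libraries of the 3 treatments overlapped, and all 6 were above the untreated libraries. Calls for Rab9 were lost without untreated library 2 or RANKL library 1 for the fall at 4 h and without untreated library 1 or RANKL library 2 for the rise at 24 h. The calls with I-BET were lost without any 1 of their 4 libraries. The highest adjusted p were 0.144, 0.166, 0.147 and 0.29. The rise from 4 to 24 h held without each library in turn (adjusted p up to 0.000689).

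Rab39, a Rab of phagosome and autophagosome maturation, read 2.33 and 2.08 RPKM in untreated cells, 0.948 and 0.818 RPKM at 14 h of RANKL, and 0.688 and 1.20 RPKM at 24 h. RANKL plus I-BET libraries read 2.07 and 2.11 RPKM at 14 h and 1.80 and 2.06 RPKM at 24 h, close to the untreated level. It fell by 1.32 at 14 h (SE 0.23, adjusted p = 0.00102) and by 1.26 at 24 h (SE 0.23, adjusted p = 0.00133). The inhibitor's differences were 1.20 at 14 h (SE 0.22, adjusted p = 0.00157) and 0.99 at 24 h (SE 0.22, adjusted p = 0.00434). From 4 to 24 h of RANKL it fell by 1.09 (SE 0.22, adjusted p = 0.00294). With I-BET alone Rab39 read 2.23 and 2.44 RPKM at 14 h and 1.47 and 1.92 RPKM at 24 h. All 5 calls held without each library in turn, with adjusted p of at most 0.044.

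Rab29, a partner of the kinase LRRK2, and Rab34, which positions lysosomes, were called lower with I-BET at 24 h in the fit without the block. Rab29 read 6.57 and 8.64 RPKM with RANKL and 3.49 and 4.65 RPKM with RANKL plus I-BET, a log2 difference of -0.93 (SE 0.24, adjusted p = 0.00914). With I-BET alone it read 4.35 and 4.92 RPKM against 8.22 and 9.56 RPKM in untreated cells, a difference of -1.03 (SE 0.24, adjusted p = 0.00754). Rab34 read 20.7 and 28.7 RPKM with RANKL and 15.03 and 16.5 RPKM with RANKL plus I-BET, a difference of -0.68 (SE 0.20, adjusted p = 0.0235). In all these groups library 2 was the higher of the pair. The Rab29 calls were lost without RANKL library 2 or RANKL plus I-BET library 1, and without untreated library 2 or I-BET library 1. The Rab34 call was lost without RANKL library 2 or either RANKL plus I-BET library. The highest adjusted p were 0.111, 0.103 and 0.251. With the block, Rab34 was also called higher at 24 h of RANKL against untreated cells (0.48, adjusted p = 0.000309). The block called Rab29 in 7 and Rab34 in 8 of the 13 comparisons, so that their differences were not confined to 24 h. At 14 h Rab29 read 4.46 and 4.90 RPKM with RANKL plus I-BET against 5.91 and 7.58 RPKM with RANKL. Rab34 then read 12.6 and 14.1 RPKM against 15.5 and 21.5 RPKM.

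Without the block, the Golgi genes called were Rab33b, Rab2b, Rab43 and Rab30. Rab33b, which links the Golgi to autophagy, read 4.803 and 3.65 RPKM at 4 h of RANKL and 7.13 and 5.65 RPKM with I-BET added, a log2 difference of 0.58 (SE 0.13, adjusted p = 0.00935). I-BET alone read 6.59 and 6.04 RPKM at 4 h and 6.07 and 5.73 RPKM at 24 h against 4.21 and 3.82 RPKM in untreated cells, differences of 0.50 (SE 0.13, adjusted p = 0.0245) and 0.48 (SE 0.13, adjusted p = 0.0195). The libraries of the groups compared did not overlap. The first call was lost without RANKL library 2 or RANKL plus I-BET library 1, and the other 2 without any 1 library (adjusted p up to 0.126, 0.131 and 0.106).

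Rab2b, of the Golgi, was higher with I-BET at 14 h of RANKL (0.986 and 0.838 against 0.618 and 0.593 RPKM, log2 difference 0.54, SE 0.14, adjusted p = 0.0149). Rab43, also of the Golgi, was higher with I-BET at 24 h of RANKL, with 94 and 147 counts against 26 and 34 (1.63, SE 0.47, adjusted p = 0.0189). Rab30 fell from 37 and 20 counts at 4 h of RANKL to 5 and 5 counts at 24 h (-2.11, SE 0.56, adjusted p = 0.0141). Untreated libraries had 3 and 3 Rab30 counts. These 3 calls rest on few reads or on shared exons. Other genes share 64.0% of the exonic bases of Rab2b, all on the opposite strand, and 75.4% of those of Rab43 are shared on the same strand, and the strand setting of the counting is not given in the sources used here. The calls were lost, in this order, without either RANKL library or RANKL plus I-BET library 1, without either RANKL library or RANKL plus I-BET library 2, and without 4 h library 1 or either 24 h library (adjusted p up to 0.124, 0.128 and 0.0964).

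Rab19, a Rab of the Golgi region with few known functions, was lowest under late RANKL. It read 0.866 and 0.632 RPKM in untreated cells, 0.247 and 0.438 RPKM at 4 h of RANKL, 0.154 and 0.198 RPKM at 14 h and 0.253 and 0.217 RPKM at 24 h. These levels stand for 12 to 31 counts in a RANKL library. The falls were -1.18 at 4 h (SE 0.30, adjusted p = 0.0478), -2.05 at 14 h (SE 0.32, adjusted p = 0.000529) and -1.69 at 24 h (SE 0.32, adjusted p = 0.00188). At 24 h of RANKL plus I-BET it read 0.527 and 0.576 RPKM, above RANKL by 1.20 (SE 0.31, adjusted p = 0.011). I-BET alone gave 0.317 and 0.352 RPKM at 4 h, below untreated cells (-1.29, SE 0.31, adjusted p = 0.0168). The fall at 4 h was lost without either untreated library or RANKL library 1. The difference of the inhibitor was lost without library 2 of either group, and that of I-BET alone without any 1 library. The highest adjusted p were 0.364, 0.0671 and 0.104.

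The other 23 tested members were not called in any of the 13 comparisons, and 11 of these were not called with the replicate block either. They hold 16 of the 24 members at 10 RPKM or more, among them Rab1, Rab1b, Rab2a, Rab6a and Rab18 of the secretory pathway, Rab5b, Rab5c and Rab21 of the early endosome, Rab8a, Rab8b, Rab11b and Rab35 of surface delivery, and Rab7. Rab35, at 28.9 to 34.8 RPKM over the 20 libraries, had the smallest ratio of highest to lowest library (1.21) of the tested members. With the block, Rab5c was called lower at 24 h of RANKL against untreated cells (-0.24, adjusted p = 0.0163) and higher with I-BET added at 24 h (0.40, adjusted p = 0.000135). In the same fit Rab24, a Rab of autophagy, was higher with I-BET added at 24 h of RANKL (0.48, adjusted p = 2.63e-05). Of its exonic bases, 62.4% are shared with Prelid1 on the opposite strand.

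Genes that load, unload and read the Rabs were counted by lists. The effector list holds Zfyve20 and Rbsn, which are names of the same gene, so that its numbers are of list entries and not of distinct genes. At 24 h of RANKL against untreated cells, where 8.04% of all genes were called higher and 10.9% lower, 2 of 36 tested exchange factors were higher and 10 lower. The numbers were 4 and 5 of 35 GTPase-activating proteins, 5 and 10 of 44 effectors, and 0 and 1 of 10 genes of prenylation and recycling. The median log2 changes of the 4 lists were -0.12, -0.07, -0.16 and 0.07, and that of all genes was 0.05. With the block, 5 exchange factors were higher and 15 lower, 9 and 10 GTPase-activating proteins, 8 and 14 effectors, and 1 and 1 of the prenylation list, beside 36.8% of all genes called in either direction. With I-BET added at 24 h, where 13.9% of all genes were called higher and 12.9% lower, the counts were 11 higher and 5 lower exchange factors, 9 and 3 GTPase-activating proteins, 10 and 5 effectors, and 1 and 0 of the prenylation list. With the block they were 19 and 6, 15 and 7, 15 and 12, and 4 and 1, beside 46.6% of all genes in either direction. The 1 prenylation gene called in both comparisons without the block was Chml, a Rab escort protein, with log2 differences of -0.71 and 0.43, the latter lost without any 1 library. These comparisons share the RANKL 24 h libraries.

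Rab3il1, an exchange factor that acts on Rab3 and Rab8 proteins, read 33.0 and 35.5 CPM in untreated cells, 2.32 and 3.96 at 24 h of RANKL, and 15.6 and 18.97 with I-BET added. Its log2 differences were -3.49 for RANKL (SE 0.31, adjusted p = 2.72e-06) and 2.43 for the inhibitor (SE 0.30, adjusted p = 3.96e-05). Rin2, an exchange factor of Rab5, read 117 and 104 CPM in untreated cells, 27.2 and 28.9 at 24 h of RANKL, and 113 and 110 with I-BET added. Both exchange factors were thus low in RANKL cells and nearer to untreated cells with the inhibitor.

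Tbc1d2b, a GTPase-activating protein, went the other way, with 41.3 and 35.4 CPM in untreated cells, 134 and 134 at 24 h of RANKL and 42.0 and 52.6 with I-BET added. Its differences were 1.76 (SE 0.14, adjusted p = 9.84e-07) and -1.53 (SE 0.14, adjusted p = 2.4e-06). Ankrd27, an exchange factor that also binds Rab32 and Rab38, read 49.2 and 44.6 CPM in untreated cells and 62.1 and 69.1 CPM at 24 h of RANKL, a rise of 0.44 (SE 0.09, adjusted p = 0.00444) that was lost without RANKL library 2. Tbc1d16, which acts on Rab4a, fell by 0.96 with RANKL and was higher by 1.53 with I-BET added. Among effectors, Rilpl2 rose by 1.72 at 24 h of RANKL and Rab11fip5, which binds Rab11, fell by 1.25. Rilp, which ties Rab7 to dynein, fell by 1.25 from 1.155 and 1.37 to 0.474 and 0.635 CPM, and this call was lost without untreated library 2 or RANKL library 1. Rilpl1 was lower by a difference of -2.17 with I-BET added. Plekhm1, a Rab7 effector needed for bone resorption, read 119 and 82.3 CPM in untreated cells and 59.1 and 54.2 at 4 h of RANKL, a fall of -0.88 (SE 0.14, adjusted p = 0.00306).

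Promoter windows from RefSeq (GRCm38.p6), 250 bases before to 50 after the start of a gene, were found by symbol for 47 of the 58 members. No window was matched for Rab1, Rab2a, Rab4a, Rab18, Rab26, Rab27b, Rab30, Rab36, Rab37, Rab38 and Rab44. Where a gene had several starts, the farthest 5′ was taken. For 4 members the 250 bases before that start are printed below 5′ to 3′, since these members had the largest rise and the largest fall at 24 h of RANKL (Rab15 and Rab32), or rose under RANKL and were called lower with I-BET added (Rab5a) or were not (Rab20). Capitals mark matches to CACGTG, the E-box read by basic helix-loop-helix factors, to TCACGTGA, a longer form that contains it, to TGANTCA, an AP-1-like site with N for any base, and to GAGGAA, a purine-rich core of the kind bound by ETS factors. Both strands were searched.
Rab15 (chr12:76822525-76822774, strand minus): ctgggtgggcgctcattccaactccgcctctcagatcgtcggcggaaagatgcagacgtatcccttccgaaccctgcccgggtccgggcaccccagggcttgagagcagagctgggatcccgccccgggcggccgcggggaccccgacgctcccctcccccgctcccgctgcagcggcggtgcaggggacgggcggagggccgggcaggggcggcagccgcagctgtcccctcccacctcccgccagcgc
Rab32 (chr10:10558208-10558457, strand minus): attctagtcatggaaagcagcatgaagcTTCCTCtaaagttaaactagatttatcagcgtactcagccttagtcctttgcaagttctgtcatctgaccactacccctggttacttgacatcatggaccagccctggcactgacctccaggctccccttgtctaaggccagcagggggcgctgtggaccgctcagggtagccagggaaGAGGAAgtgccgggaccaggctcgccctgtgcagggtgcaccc
Rab5a (chr17:53478984-53479233, strand plus): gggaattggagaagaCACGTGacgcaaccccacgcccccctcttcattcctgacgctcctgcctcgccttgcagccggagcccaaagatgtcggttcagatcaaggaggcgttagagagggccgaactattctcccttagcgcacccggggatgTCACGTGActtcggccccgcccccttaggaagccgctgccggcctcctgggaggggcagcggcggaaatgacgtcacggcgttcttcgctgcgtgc
Rab20 (chr8:11478641-11478890, strand minus): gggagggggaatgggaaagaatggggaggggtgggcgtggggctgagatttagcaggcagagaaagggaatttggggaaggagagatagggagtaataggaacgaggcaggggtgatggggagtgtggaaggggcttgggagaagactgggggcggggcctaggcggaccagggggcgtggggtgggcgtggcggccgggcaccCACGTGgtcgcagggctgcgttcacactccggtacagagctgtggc

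Rab15, for which RefSeq lists 4 starts, had none of these motifs in this window, and the position given with the RPKM values begins the gene farther 5′. Rab32 had GAGGAA at 222 and 43 bases before its start, the former on the other strand. Rab5a had CACGTG at 235 and 95 bases before its start, the latter within TCACGTGA, and Rab20 had CACGTG at 46 bases before its start, while its GAGGAA lay past the start. Over the 47 windows of 300 bases, CACGTG was found in 5 (10.6%, beside 7.24% of the windows of all 27025 genes), and these were Rab5a, Rab20, Rab21, Rab23 and Rab24. TCACGTGA was found in 3 (6.38%, beside 1% of all), TGANTCA in 2 (4.26%, beside 7.92%) and GAGGAA in 8 (17%, beside 28.3%). Rab34 and Rab39b held TGANTCA. A match describes the letters and is not a binding site.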

How the data were processed

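RNA was measured in 20 libraries of RAW264.7 cells, 2 in each of 10 groups, by sequencing of poly(A) RNA. The deposited count table gives whole read counts per gene, and the deposited table of RPKM values gives levels that the authors scaled by gene length and library size. For the 42748 genes in both, the 202368 RPKM values with enough counts were checked. Within a gene they kept a fixed ratio to the count divided by the library total. The gene length itself was not checked. FastQC, STAR 2.5.3a, DESeq2 1.16.1 and the mouse build GRCm38 (mm10) are named, per the submitters' processing notes; which program counted the reads, and whether by strand, is not given in the sources used here.

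From the counts, edgeR 4.0.16 in R 4.3.3 (TMM scaling, filterByExpr by group, quasi-likelihood F test) was fitted to all 20 libraries at once, with 10 residual degrees of freedom and Benjamini-Hochberg adjustment over 16042 genes in each of 14 comparisons. Calls are at an adjusted p under 0.05. Fold changes are log2, and levels are shown as RPKM or CPM. SE is the size of the log2 change divided by the square root of its F statistic. It is thus worked back from the test and is not a separate estimate of spread. Libraries held 19051780 to 62313792 counts, and intervals of ratios cover counting error only. Gene positions are those given with the deposited RPKM values, and shared exons come from GENCODE M21.

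Alternatives were DESeq2 1.42.0, RLE size factors, no filter on low counts, each library left out, and a block for the replicate number in the labels. Same-numbered libraries deviated together in all 45 pairs of groups (correlations of 0.221 to 0.596 over genes), so the numbers were taken to pair the libraries in the block. The main fit and the fits with a library left out do not use this pairing. The block added 84 calls and lost 0, so that a member not called in the main fit may differ when the pairing is used. The biological coefficient of variation was 0.162 without and 0.0751 with the block. Members named were those called in a comparison (up to 6 rises and 6 falls) and 11 fixed genes; of other lists, the 2 largest rises and falls called in a comparison. The members, the lists and the rules were chosen with earlier results of these data known.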

Additional observations from a re-analysis of the deposited data

Results flagged for a closer look

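For 4 Rab genes the difference between RANKL plus I-BET and RANKL was itself different at 24 h and at 4 h, by edgeR's quasi-likelihood test of the interaction with adjustment over all genes. Rab32, of lysosome-related organelles, went from a log2 difference of -0.93 at 4 h to 0.64 at 24 h, a change of 1.57 (adjusted p = 0.00176). Rab11a, of recycling endosomes, went from -0.05 to 0.77, a change of 0.81 (adjusted p = 0.00514). Rab10, of surface delivery, went from 0.04 to 0.48, a change of 0.44 (adjusted p = 0.0287). When each library was left out in turn, the Rab10 call was kept only without RANKL 24 h library 2. Rab15 went from -0.89 to -9.76, a change of -8.87 (adjusted p = 0.00462), where both 4 h groups held few counts, 12 with RANKL and 6 with RANKL plus I-BET. The Rab15 call was lost without RANKL plus I-BET 4 h library 1.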

How the results depend on the processing

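The main choice that moved counts of called members was the replicate block. With it, 9 members were called at 4 h of RANKL against untreated cells, 11, 23 and 23 for RANKL plus I-BET against RANKL at 4, 14 and 24 h, 11, 11 and 16 for I-BET against untreated cells, 2 at 4 h and 2 at 24 h for RANKL plus I-BET against I-BET, 16 between 4 and 24 h of RANKL, and 16 in the interaction. The block added 84 calls to the 88 made without it and lost 0. With the block and untreated library 2 left out, an alternative chosen after seeing the data, I-BET against untreated cells gave 9 calls at 14 h and 12 at 24 h. Without the filter on low counts, I-BET at 4 h gave 3 calls. Of the 88 calls, DESeq2 made all 88, RLE size factors 87 and the fit without the filter 68. None of these alternatives turned a called direction.

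Leaving out 1 library at a time gave 0 to 2 calls for RANKL at 4 h, 7 to 8 at 14 h and 7 to 9 at 24 h. RANKL plus I-BET against RANKL gave 1 to 3, 7 to 8 and 9 to 11, and I-BET against untreated cells 0 to 2, 2 to 3 and 3 to 5. RANKL plus I-BET against I-BET gave 0, 0 to 1 and 0, the 4 to 24 h comparison 6 to 7, and the interaction 2 to 7. Of the 88 calls, 52 were lost in at least 1 such fit, each of which has fewer libraries. With 2 libraries per group, changes of low members such as Rab15 outside late RANKL rest on 0 to 14 counts a library, and 14 members were too low to test.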
